A study of Rattus norvegicus with 12 samples.

Results

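A set of 10 genes that mark astrocytes was followed in the rat inferior colliculus (IC), the auditory centre of the midbrain, after loss of hearing in the right ear. The genes were listed by name (Gfap, Aqp4, Slc1a2, Slc1a3, Gja1, Aldh1l1, Slco1c1, Acsbg1, Elovl2 and Itga7) and were read from probes that carry exactly 1 gene symbol, taking the brightest probe by its mean over all 12 arrays. This gave 9 measured genes of the 10 listed, among 18166 genes in all. Each of the 9 had a single such probe, so brightness made no choice among probes. Aldh1l1 had no probe of this kind and was not analysed here.

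On the left, opposite the ablated ear, Elovl2, Itga7 and Slco1c1 had lower values on all 3 deaf arrays than on all 3 control arrays, by 0.36, 0.40 and 0.29 on the log2 scale. Such a gap in the lower direction was found for 5.7% of all genes. Elovl2 and Itga7 had been named earlier for their left difference, so for them the gap is a description. The classical markers Gfap, Aqp4, Gja1, Slc1a2 and Slc1a3 differed by at most 0.06 on the left. On the right, the ablated side, no astrocyte gene differed by more than 0.17. At an adjusted p under 0.05, limma called 0 of the astrocyte genes in either IC, as it called 0.0% of all genes on the left (0 of 18166) and 0.0% on the right (0 of 18166).

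The samples were 4 groups of 3 arrays. Left deaf and right deaf arrays hold IC of rats of the strain labelled SD with the right cochlea surgically removed. Left control and right control arrays hold IC of SD rats given a sham operation, an incision behind the ear in which the bulla was not drilled. All tissue was taken 2 weeks after surgery, and each arm is described as 20 rats. Age and sex are not stated, nor is it stated whether an array is 1 rat or a pool, and p-values therefore measure array-to-array spread that may be technical. The sample titles, source names and tissue entries give IC, whereas the series title and the sample descriptions give hippocampus. Of 13 measured tectal midbrain transcription factors, 8 lay above the median gene level of 5.97 and 0 below the lower quartile of 4.48. Of 9 measured markers of hippocampus and cortex, 4 lay above that median and 2 below that quartile. Lhx2 and Zbtb20, which lay above it, also stand in an astrocyte list used below. These counts are a description and do not settle which label holds. The values are log2 intensities with a median of 5.34 over all probes and arrays. Any 2 arrays correlated at 0.982 to 0.993, and with 3 arrays a group small differences could not be resolved.

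Astrocytes are the glial cells that clear glutamate and potassium from around synapses, move water at blood vessels, are joined by gap junctions and supply neurons with lipids and energy substrates. After injury or loss of input they can become reactive, with more of the filament protein GFAP. In the auditory brainstem, glial responses to cochlear removal are known mainly from the cochlear nucleus, where the auditory nerve ends. The left IC receives most of its ascending input from the right ear, which was the ablated ear, and the right IC from the left ear. In bulk tissue such as this, fewer astrocytes and less RNA per astrocyte cannot be told apart.

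Of the astrocyte genes 8 were well above the median gene level, with means over 12 arrays of 8.23 to 10.99, and Itga7, at 5.47, was below it. Without detection calls, the Itga7 values are given as measured. The members were chosen with earlier results of these data known, and Elovl2 and Itga7 had been named for their left difference, so the values of those 2 genes that rest on left arrays are a description with no test. Differences are deaf minus control, with the standard error (SE) of limma, a linear model that shares information on the spread between genes, and with 95% intervals that are not adjusted over genes. Adjusted p-values are Benjamini-Hochberg values over 18166 genes. An unadjusted p under 0.05 was reached by 3.69% of all genes on the left, 1.99% in the lower direction, and by 4.31% on the right. Of the 9 astrocyte genes 3 reached it on the left, all lower and including Elovl2 and Itga7, and 0 on the right.

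**Figure D1:**
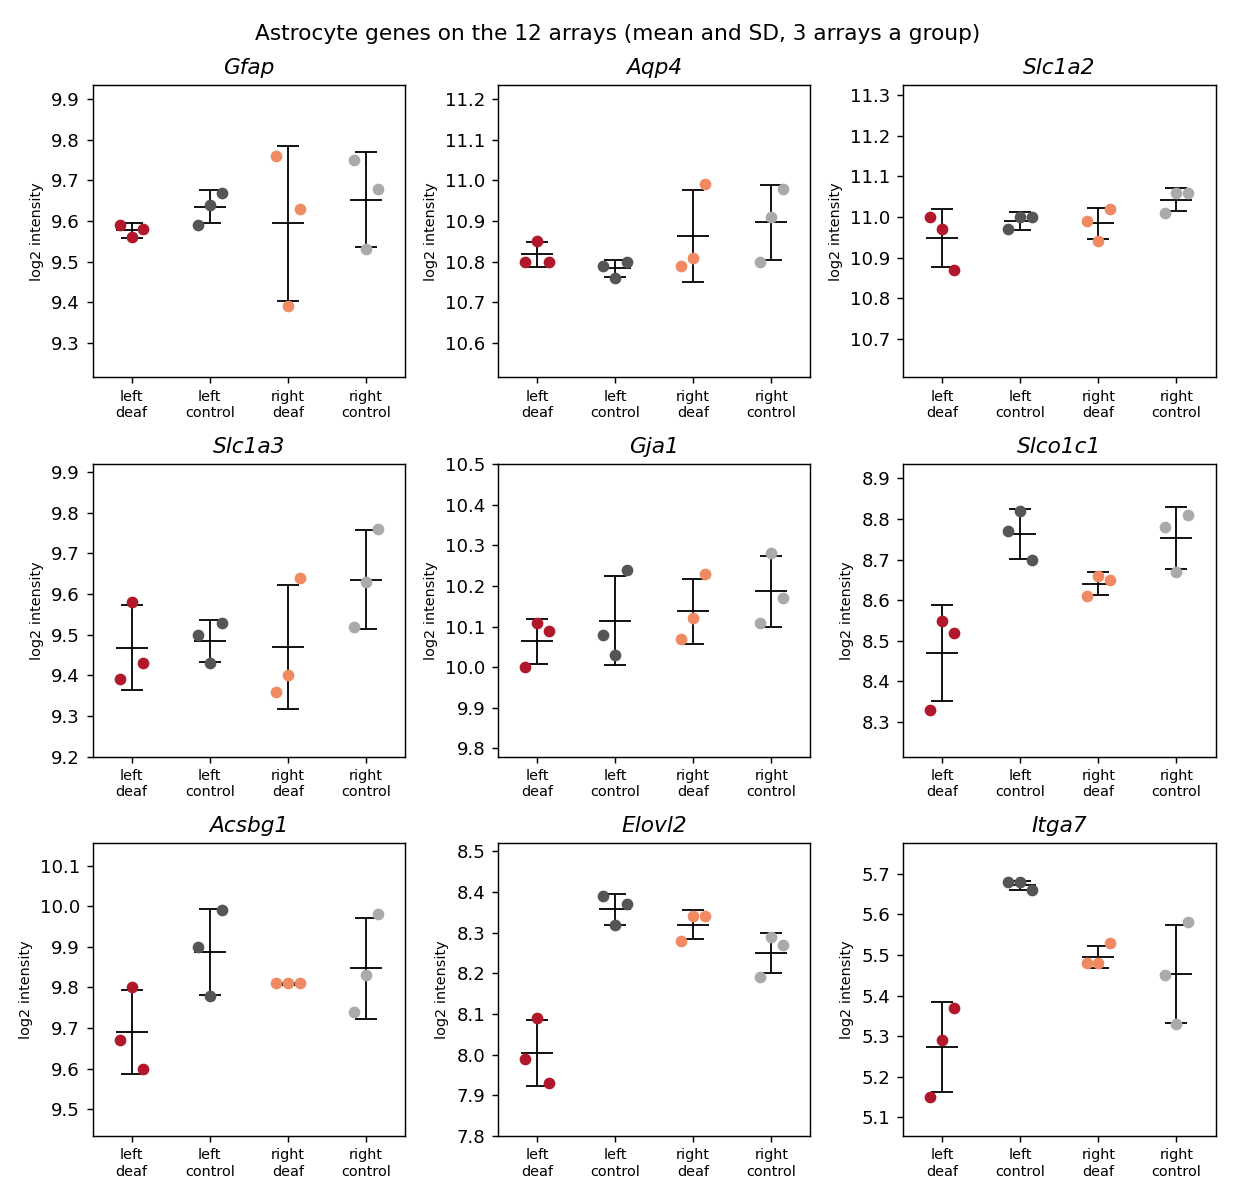
Log2 intensity (vertical axes, each spanning the same height) of the 9 measured astrocyte genes on the 12 arrays, by group; points are arrays, and bars are the mean and SD of 3 arrays. For Elovl2, Itga7 and Slco1c1 the left deaf points lie below the left control points, whereas the points of Gfap and Slc1a3 mix.

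Gfap, Aqp4 and Gja1 encode the intermediate filament of astrocytes, the water channel of their endfeet and the main gap junction protein of astrocytes. Gfap (Entrez 24387) was at 9.59, 9.56 and 9.58 on left deaf arrays, against 9.59, 9.64 and 9.67 on left control arrays. It was at 9.76, 9.39 and 9.63 on right deaf arrays, against 9.75, 9.53 and 9.68 on right control arrays. The groups overlapped on both sides, and the right groups spread more widely than the left. The difference was -0.06 on the left (SE 0.100, interval -0.28 to 0.16) and -0.06 on the right (SE 0.100, interval -0.28 to 0.16), with limma adjusted p = 1.00 for each. Right deaf 2 had the lowest Gfap of all arrays, and the right difference was 0.04 with it left out. It was -0.14 without right deaf 1, and leaving out right control 2 or right control 1 gave -0.12 or -0.01. A Gfap difference above 0.16 lay outside the interval on either side.

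Aqp4 (Entrez 25293) was at 10.80, 10.85 and 10.80 on left deaf arrays, against 10.79, 10.76 and 10.80 on left control arrays. It was at 10.79, 10.81 and 10.99 on right deaf arrays, against 10.80, 10.91 and 10.98 on right control arrays. Both pairs of groups overlapped, with differences of 0.03 on the left (SE 0.082) and -0.03 on the right (SE 0.082; limma adjusted p = 1.00 each). Gja1 (Entrez 24392) was at 10, 10.11 and 10.09 on left deaf arrays, against 10.08, 10.03 and 10.24 on left control arrays. In the right IC it was at 10.07, 10.12 and 10.23 on deaf arrays, against 10.11, 10.28 and 10.17 on control arrays. Gja1 overlapped on both sides, with a difference of -0.05 on the left (interval -0.24 to 0.14) and -0.05 on the right (interval -0.24 to 0.14; limma adjusted p = 1.00 each).

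Slc1a2 and Slc1a3 encode the glutamate transporters GLT-1 and GLAST, which take up the glutamate released at synapses; GLAST is also abundant in the Bergmann glia of the cerebellum. Slc1a2 (Entrez 29482) was at 11.00, 10.97 and 10.87 on left deaf arrays, against 10.97, 11.00 and 11.00 on left control arrays. It was at 10.99, 10.94 and 11.02 on right deaf arrays, against 11.01, 11.06 and 11.06 on right control arrays. Both pairs of groups overlapped. Slc1a2 had the smallest range over the 12 arrays of the 9 genes, 0.19, and differed by -0.04 on the left (interval -0.20 to 0.11) and -0.06 on the right (interval -0.21 to 0.10; limma adjusted p = 1.00 each).

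Slc1a3 (Entrez 29483) was at 9.39, 9.58 and 9.43 on left deaf arrays, against 9.5, 9.43 and 9.53 on left control arrays. Its right values were 9.36, 9.40 and 9.64 on deaf arrays, against 9.52, 9.63 and 9.76 on control arrays. The right groups overlapped through right deaf 3. The difference was -0.02 on the left (SE 0.100) and -0.17 on the right (SE 0.100, interval -0.38 to 0.05; limma adjusted p = 1.00), the largest right difference of the 9 genes. Leaving out right deaf 3 gave -0.25 on the right, right deaf 1 gave -0.11 and right control 3 gave -0.10.

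Markers of the cerebellum and of its Bergmann glia followed the Slc1a3 values in part. Cerebellar markers, 17 measured of 18 listed, averaged 5.82 to 5.87 on right deaf arrays, against 6.06 to 6.51 on right control arrays, and 15 of the 17 had lower means in right deaf rats. Left deaf arrays averaged 5.86 to 5.98 on this list, against 5.85 to 5.95 on left control arrays. Gene-centred, the cerebellar list was low on right deaf 3 (-0.155) and left deaf 2 (-0.124), the highest Slc1a3 arrays of their groups. Bergmann glia markers, 8 measured of 10 listed, averaged 7.09 to 7.27 on right deaf arrays, against 7.13 to 7.27 on right control arrays. These ranges overlap. The gene-centred Bergmann list was highest on right deaf 3 (0.122) and right control 3 (0.128), which were also the highest arrays for Slc1a3 and for Aqp4. The part of such tissue in the Slc1a3 and Aqp4 values was not tested.

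Acsbg1 and Elovl2 act on fatty acids. Acsbg1 encodes a long-chain acyl-CoA synthetase, which activates fatty acids, and Elovl2 an elongase that lengthens polyunsaturated fatty acids on the way to docosahexaenoic acid, the main omega-3 lipid of brain membranes. Acsbg1 (Entrez 171410) was at 9.67, 9.80 and 9.60 on left deaf arrays, against 9.90, 9.78 and 9.99 on left control arrays. In the right IC it was at 9.81 on each of the 3 deaf arrays, against 9.74, 9.83 and 9.98 on control arrays. The left groups overlapped through left deaf 2 and left control 2, and the difference was -0.20 (SE 0.091, interval -0.39 to 0.00; limma adjusted p = 1.00). On the right it was -0.04 (interval -0.24 to 0.16).

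Elovl2 (Entrez 498728) was at 7.99, 8.09 and 7.93 on left deaf arrays, against 8.39, 8.32 and 8.37 on left control arrays. On the right it was at 8.28, 8.34 and 8.34 on deaf arrays, against 8.19, 8.29 and 8.27 on control arrays. The left deaf arrays were the 3 lowest of all 12, and the highest of them was 0.10 below the next array, right control 1. The left difference was -0.36 (SE 0.074), a ratio of 0.782, and ran from -0.40 to -0.32 with 1 array left out. The right difference was 0.07 (SE 0.074, interval -0.09 to 0.23; limma adjusted p = 1.00).

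The promoters of the lipid genes Elovl2 and Acsbg1 are shown to set their letters beside those of Gfap, the best known astrocyte gene, with left differences of -0.36, -0.20 and -0.06 in that order. Each is the 250 bases before a start site, from RefSeq on build GRCr8, 5′ to 3′ on the gene's strand, and 7 of the 9 genes had an entry in that table (not Slco1c1 or Itga7). Capitals mark matches to 1 of 7 motifs searched on both strands.
Elovl2: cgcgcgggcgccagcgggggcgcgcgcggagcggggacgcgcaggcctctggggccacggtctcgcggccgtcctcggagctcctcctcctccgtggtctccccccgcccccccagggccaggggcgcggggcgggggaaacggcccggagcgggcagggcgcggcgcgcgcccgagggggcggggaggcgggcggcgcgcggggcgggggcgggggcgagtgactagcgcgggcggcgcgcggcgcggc
Acsbg1: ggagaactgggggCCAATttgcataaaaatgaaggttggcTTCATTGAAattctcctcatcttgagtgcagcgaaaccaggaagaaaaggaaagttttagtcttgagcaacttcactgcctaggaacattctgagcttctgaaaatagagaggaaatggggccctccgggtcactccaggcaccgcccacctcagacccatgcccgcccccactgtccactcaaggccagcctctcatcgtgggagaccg
Gfap: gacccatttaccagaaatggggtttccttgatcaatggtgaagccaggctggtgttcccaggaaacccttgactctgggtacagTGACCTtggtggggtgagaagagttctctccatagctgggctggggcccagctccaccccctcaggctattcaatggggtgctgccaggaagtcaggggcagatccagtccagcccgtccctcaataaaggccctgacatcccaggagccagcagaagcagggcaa
They lie at chr17:23750100-23750349 (plus strand), chr8:63943279-63943528 (minus strand) and chr10:88361662-88361911 (minus strand). The motifs were the STAT motif TTCNNNGAA, the NFI motif (TTGGC, any 5 bases, then GCCAA), the short NFI motif TTGGCA, the nuclear receptor motif AGGTCA, the E-box CACGTG, the box CCAAT and the box TATAAA; the short NFI motif shares letters with the full NFI motif and, on the other strand, with CCAAT. Acsbg1 held a STAT motif whose first base was at -210 from the start and a CCAAT box at -237. Gfap held the nuclear receptor motif on the other strand at -166, and Elovl2 held none of the 7. Among 33356 windows of this length, 7.68% held the STAT motif, 34.0% the CCAAT box and 14.1% the nuclear receptor motif. The other shares were 0.036% for the NFI motif, 12% for the short NFI motif, 5.61% for the E-box and 12.9% for TATAAA. The Elovl2 window had 86.8% G and C, that of Acsbg1 52.4% and that of Gfap 57.6%, against a median of 51.6% over all windows. A match is a description of letters only.

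Slco1c1 and Itga7 act at the cell surface. Slco1c1 encodes a carrier of thyroid hormone, found in rodents in brain endothelium as well as in astrocytes, and Itga7 the integrin alpha 7 chain, a laminin receptor known best from muscle and also present on astrocytes and vascular smooth muscle. Slco1c1 (Entrez 84511) was at 8.33, 8.55 and 8.52 on left deaf arrays, against 8.77, 8.82 and 8.70 on left control arrays. On the right it was at 8.61, 8.66 and 8.65 on deaf arrays, against 8.78, 8.67 and 8.81 on control arrays. All deaf arrays were below all control arrays of their own side, with a wide gap on the left and a gap of about 0.01 on the right. The left difference was -0.29 (SE 0.083, interval -0.47 to -0.11; limma adjusted p = 1.00), and the right difference was -0.11 (SE 0.083, interval -0.29 to 0.07; limma adjusted p = 1.00). The left value was -0.22 without left deaf 1.

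Markers of brain endothelium, which also expresses Slco1c1, had lower means in left deaf rats for 8 of 10 measured genes of 13 listed, with a median difference of -0.11. Their average level was 7.04 to 7.19 on left deaf arrays, against 7.14 to 7.29 on left control arrays. On the right it was 7.00 to 7.25 on deaf arrays, against 7.03 to 7.37 on control arrays. The endothelial part in the Slco1c1 values was not tested.

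Itga7 (Entrez 81008) was at 5.15, 5.29 and 5.37 on left deaf arrays, against 5.68, 5.68 and 5.66 on left control arrays. On the right it was at 5.48, 5.48 and 5.53 on deaf arrays, against 5.45, 5.33 and 5.58 on control arrays. Left control arrays were above all other arrays, and left deaf arrays were low, with only right control 2 among them. The left difference was -0.40 (SE 0.085), a ratio of 0.758, and ran from -0.45 to -0.34 with 1 array left out. The right difference was 0.04 (SE 0.085, interval -0.14 to 0.23; limma adjusted p = 1.00), and it was -0.02 with right control 2 left out and 0.11 with right control 3 left out. Mural cells, the smooth muscle cells and pericytes of vessels, can also express Itga7. Their markers, 10 measured of 12 listed, had lower means in 5 on the left and averaged 6.35 to 6.59 on left deaf arrays, against 6.41 to 6.45 on left control arrays. The mural part in the Itga7 values was not tested.

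**Figure D2:**
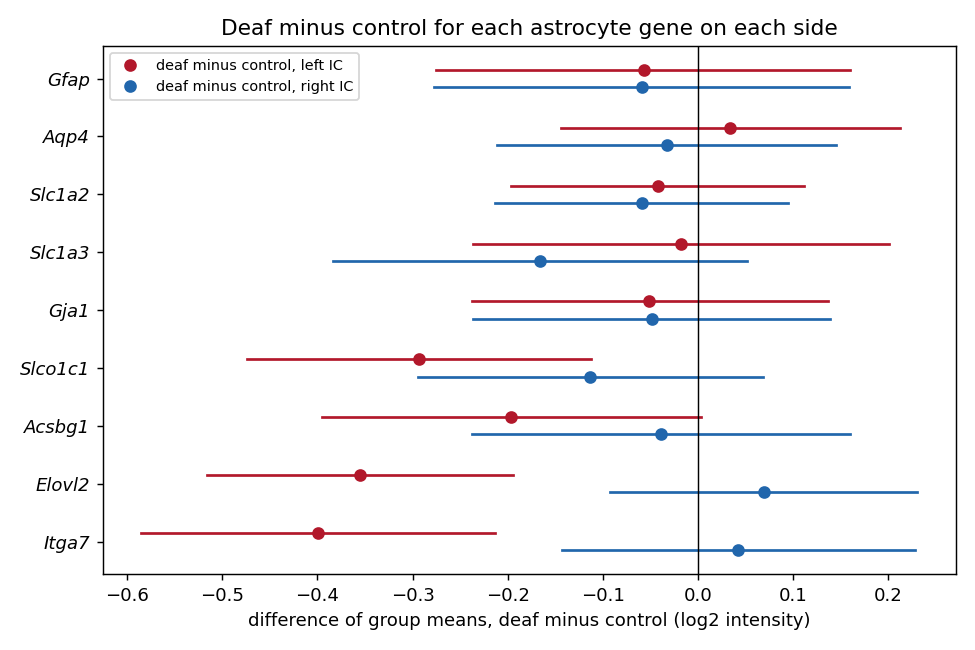
Difference of group means, deaf minus control (log2 intensity, horizontal axis), for the 9 astrocyte genes in the left IC (red) and the right IC (blue), with unadjusted 95% intervals of limma. The left interval of Slco1c1 lies below 0, and all 9 right intervals include 0. The left intervals of Elovl2 and Itga7 are drawn as a description with no test, because of how these genes were chosen.

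As a group, 8 of the 9 genes had lower means in left deaf rats, with a median difference of -0.06, against -0.01 over all genes, of which 51.8% were lower. In right deaf rats 7 of the 9 had lower means, with a median of -0.05 against 0.00 over all genes, of which 49.5% were lower. Arrays did not overlap, in the lower direction, for 3 of 9 on the left, against 5.7% of all genes, and for 1 of 9 on the right, against 3.84%. The left counts include Elovl2 and Itga7, so nothing is read from them. With 1 array left out, the left median ran from -0.094 (without left control 2) to -0.039 (without left control 3). The right median ran from -0.082 (without right control 1) to -0.037 (without right deaf 2), and was -0.077 without right deaf 3. Left differences beyond 0.06 belonged to 4 genes, Slco1c1, Acsbg1, Elovl2 and Itga7.

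Averaged over both sides, Slco1c1 differed by -0.20 (SE 0.059, interval -0.33 to -0.08; limma adjusted p = 0.998), and all 6 deaf arrays were below all 6 control arrays. Such a gap in the lower direction was found for 0.171% of all genes and for 1 of the 9. The median of the 9 was -0.09 and was -0.060 without right control 3. Acsbg1 was at -0.12 (SE 0.064), Slc1a3 at -0.09 (SE 0.071), Gfap at -0.06 (SE 0.071) and Aqp4 at 0.00 (SE 0.058), with limma adjusted p from 0.998 to 1.00. Elovl2 was at -0.14 and Itga7 at -0.18, with right values above 0. Limma called 0.0% of all genes in this comparison (0 of 18166, with 4.53% at an unadjusted p under 0.05).

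Left and right IC were also compared within each arm. In deaf rats the left mean was below the right mean for 9 of 9 genes, with a median of -0.07, against -0.01 over all genes, of which 52.2% were lower. That median was -0.117 without right deaf 2 and -0.029 without right deaf 3. The count includes Elovl2 and Itga7, so nothing is read from it. Differences of Slc1a3 (-0.002), Gfap (-0.016), Slc1a2 (-0.036), Aqp4 (-0.046) and Gja1 (-0.074) were smaller than their SE. Elovl2 was at -0.32 (SE 0.074), Itga7 at -0.22 (SE 0.085), Slco1c1 at -0.17 (SE 0.083) and Acsbg1 at -0.12 (SE 0.091), and the arrays of these 4 did not overlap, against 4.58% of all genes in this direction. In control rats Itga7 was higher on the left by 0.22 (SE 0.085) and Elovl2 by 0.11 (SE 0.074), and neither overlapped, against 4.96% of all genes in that direction. Elovl2 and Itga7 had been named for their left difference, so nothing is read from their lack of overlap in either arm. Slc1a2 was lower on the left in control rats without overlap, at -0.05 (SE 0.071; limma adjusted p = 0.959), against 4.84% of all genes. These comparisons share arrays with the left and right differences given above, so they are not separate evidence. Limma called 0.0% of all genes in each (0 of 18166, with 3.34% in deaf rats and 4.95% in control rats at an unadjusted p under 0.05).

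By the order of the 4 group means, left deaf was lowest for 8 of the 9 genes, the exception being Aqp4, whose lowest mean was in left control. Elovl2 and Itga7, named earlier for their left difference, are in that count. The highest mean was in right control for 5 genes (Gfap, Aqp4, Slc1a2, Slc1a3, Gja1) and in left control for 4 (Slco1c1, Acsbg1, Elovl2, Itga7). For Slc1a2 only right control, the highest, stood apart from its neighbour. For Gfap, Aqp4, Slc1a3 and Gja1 no neighbours in that order were separated by their arrays. For Elovl2 and Acsbg1 only the lowest group, left deaf, stood apart from its neighbour. For Itga7 only the highest, left control, did so. Slco1c1 had both deaf groups apart, with left deaf below right deaf and right deaf below right control.

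The difference between the sides, left minus right of the deaf minus control values, was -0.42 for Elovl2 (SE 0.104) and -0.44 for Itga7 (SE 0.120), which were not tested because of how these genes were chosen. It was -0.18 for Slco1c1 (SE 0.117, interval -0.44 to 0.08), -0.16 for Acsbg1 (SE 0.129), 0.15 for Slc1a3 (SE 0.141) and 0.00 for Gfap (SE 0.141), with limma adjusted p = 1.00 for each. Single arrays moved these values: Slco1c1 was at -0.111 without left deaf 1, and Acsbg1 at -0.101 without right control 1. Slc1a3 ran from 0.085 without right control 3 to 0.236 without right deaf 3, with 0.090 without left deaf 2 and 0.094 without right deaf 1. Of all genes 0.0% were called (0 of 18166, with 3.42% at an unadjusted p under 0.05). For Slco1c1 and Acsbg1 the left difference was therefore not shown to differ from the right difference.

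**Figure D3:**
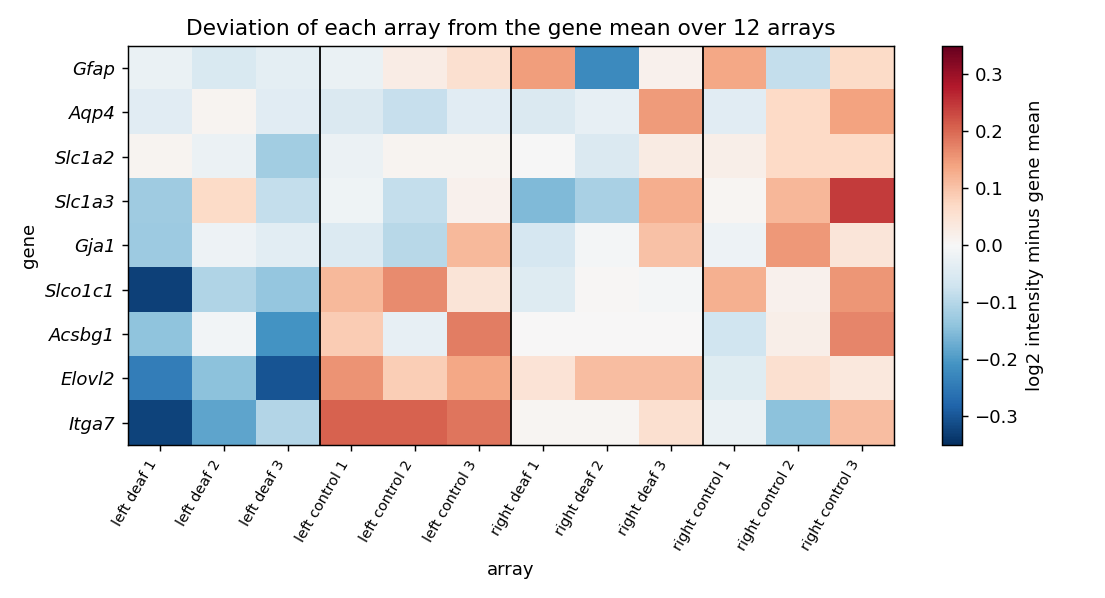
Deviation of each of the 12 arrays (columns, grouped by side and arm) from the gene's mean over all arrays (log2 intensity, colour), for the 9 astrocyte genes (rows). Elovl2, Itga7 and Slco1c1 are blue on left deaf and red on left control arrays, and right deaf 3 and right control 3 are red for Aqp4 and Slc1a3.

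Among the 36 pairs of astrocyte genes, correlations over the 12 arrays after removal of the group means ran from -0.51 (Gfap with Elovl2) to 0.95 (Aqp4 with Slc1a3), with a median of 0.27, and 24 were above 0. Slco1c1 and Itga7 were at 0.80, and Acsbg1 and Elovl2 at 0.73 (n = 12 arrays, as a description; the genes of an array share its tissue piece, RNA and normalization). Elovl2 and Itga7, which were both low on left deaf arrays, were at -0.19 within groups. Gfap was at -0.10 with Aqp4 and at -0.26 with Gja1.

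Named by their likeness over the 12 arrays (Pearson r with the mean of the gene-centred astrocyte values, among genes above the median level, the best of many and given as a description), the nearest genes were Cflar (0.89), Sec24c (0.87), Hsd11b1 (0.87), Nrsn1 (0.86) and Rgs8 (0.86). Nearest to Gfap were Slu7 (0.84), Tmem161a (0.82) and Scd (0.81). Nearest to Elovl2 were Ptprn (0.90), Inka2 (0.89) and Vgf (0.85), and nearest to Itga7 were Sec24c (0.87), Slc25a12 (0.87) and Rnf122 (0.83). Ptprn and Vgf encode proteins of dense core vesicles, which are known from neurons and endocrine cells. Vgf had means of 7.29 in left deaf, 8.17 in left control, 8.06 in right deaf and 8.06 in right control, and Ptprn 8.77, 9.01, 9.01 and 8.97 in the same groups. For both genes left deaf had the lowest mean. They were picked for likeness to Elovl2, which was itself lowest there, so nothing is read from this order.

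Further genes of the same astrocyte functions were read from 9 lists, which in part share genes and were chosen with earlier results known. Limma called 0 of their genes on either side at an adjusted p under 0.05 (adjusted p = 1.00 for each gene named). Non-overlap is read against 5.7% lower and 4.61% higher over all genes on the left, and 3.84% lower and 3.64% higher on the right. Among potassium, water and gap junction genes, 11 of 15 measured genes had lower means in left deaf rats (median -0.05) and 4 did not overlap, all lower. On the right 11 of 15 had lower means (median -0.10) and 2 did not overlap, both lower. Kcnj16, an inwardly rectifying potassium channel gene, was at 8.25, 8.4 and 8.5 on left deaf arrays, against 8.74, 8.56 and 8.81 on left control arrays, a difference of -0.32 (SE 0.104), and on the right it was at -0.20 (SE 0.104). Its partner Kcnj10, the Kir4.1 channel gene of astrocytes, was at 8.80, 8.70 and 8.67 on left deaf arrays, against 8.88, 8.85 and 8.93 on left control arrays. The Kcnj10 difference was -0.16 on the left (SE 0.074) and 0.00 on the right. Aqp9, a channel for water and glycerol, was at -0.17 on the left (SE 0.074). Gja4, a connexin gene of vessels, was at -0.18 on the right (SE 0.121), and Slc12a2, a sodium, potassium and chloride cotransporter gene, at -0.12 (SE 0.081). Gjb6, another astrocyte connexin gene, was at -0.02 on the left (SE 0.127) and -0.15 on the right (SE 0.127).

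Glutamate and glutamine genes had lower means in 11 of 16 on the left (median -0.02) and in 5 of 16 on the right (median 0.02). On the left 2 did not overlap in each direction, and on the right 0. The glutamine carrier gene Slc38a3 was at -0.18 on the left (SE 0.106), and the metabotropic receptor gene Grm5 at 0.13 on the left (SE 0.092) and 0.15 on the right (SE 0.092). Slc1a5, a neutral amino acid carrier gene, differed by -0.13 (left) and 0.20 (right), with an SE of 0.112. Aldh4a1, which acts in proline breakdown to glutamate, was at 0.13 on the right (SE 0.102).

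Energy and lipid metabolism genes had lower means in 16 of 22 on each side, with medians of -0.05 on the left and -0.04 on the right. Phgdh, the first enzyme of serine synthesis, was at 6.05, 5.88 and 6.08 on left deaf arrays, against 6.52, 6.33 and 6.67 on left control arrays. This was a difference of -0.51 on the left (SE 0.177), without overlap, against 0.22 on the right (SE 0.177). Pygm, a glycogen phosphorylase gene, was at -0.15 on the left (SE 0.085) and -0.10 on the right (SE 0.085), without overlap on either side. Abca1, a cholesterol exporter gene, was at 0.13 on the left (SE 0.091), and Paqr6, a membrane receptor gene, at -0.23 on the right (SE 0.120). Aldoc, the aldolase gene of astrocytes, was at -0.04 on the left (SE 0.090) and -0.01 on the right (SE 0.090).

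In the fatty acid elongation and desaturation list, which holds other enzymes of the same lipid routes as Elovl2, 9 of 16 had lower means on the left (median -0.03) and 12 of 16 on the right (median -0.08). On each side 3 did not overlap, all lower. Hsd17b12, which encodes the ketoacyl reductase of the elongation cycle, was at -0.20 on the left (SE 0.093). Elovl7 was at -0.13 on the left (SE 0.089) and -0.15 on the right (SE 0.089), and Elovl5, which acts before Elovl2, at -0.09 on each side (SE 0.082). The desaturase genes Fads1 and Fads2 were at -0.19 (SE 0.101) and -0.11 (SE 0.071) on the right. Elovl3 had means of 3.21 in left deaf and 2.99 in left control rats, below the lower quartile of gene levels, and was at 0.22 on the left (SE 0.117).

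Among genes of integrins, laminins, basement membrane and sarcoglycans, the adhesion systems to which Itga7 belongs, 9 of 23 had lower means on the left (median 0.01) and 16 of 23 on the right (median -0.03). Itgb1, the beta chain that pairs with Itga7, was at 0.01 on the left (SE 0.080) and -0.03 on the right (SE 0.080). Itgb5 was at -0.19 (SE 0.089) and Itgb8 at -0.11 (SE 0.080) on the left, both without overlap. Lamb2, a laminin chain gene, was at 0.18 on the left (SE 0.130). On the right Itga1 was at -0.25 (SE 0.106), Itga4 at -0.28 (SE 0.123, without overlap) and Itga9 at 0.23 (SE 0.178). Itga4 had means of 4.11 in right deaf and 4.39 in right control rats, below the lower quartile of gene levels.

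In the thyroid hormone list, which holds the functional neighbours of Slco1c1, 9 of 14 had higher means on the left (median 0.03). There 3 did not overlap in the higher direction and 1 in the lower direction. On the right 9 of 14 also had higher means (median 0.02), and 1 did not overlap in each direction. Slc7a8, a carrier of amino acids and thyroid hormone, was at 8.89, 8.80 and 8.79 on left deaf arrays, against 8.56, 8.29 and 8.72 on left control arrays, a difference of 0.30 (SE 0.109). Dio3, the enzyme that inactivates thyroid hormone, was at 0.41 on the left (SE 0.174), with means of 4.87 in left deaf and 4.46 in left control rats, near the lower quartile of gene levels. Ttr, the thyroid hormone carrier of choroid plexus, was at 0.28 on the left (SE 0.103) and lay below the median gene level. It is among 13 measured ependymal and choroid plexus markers, of which 10 had lower means on the left (median -0.09). In that list Kcnj13 was at 0.28 (SE 0.410) and Folr1 at -0.22 (SE 0.084) on the left. In the right IC 10 of the 13 had higher means (median 0.17). On the right Dio2, the activating enzyme of astrocytes, was at -0.19 (SE 0.120), Dio3 at 0.20 (SE 0.174) and Thra, a thyroid hormone receptor gene, at 0.13 (SE 0.070).

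Reactive astrocyte genes, 29 measured of 31 listed, had lower means in 19 on the left (median -0.02) and higher means in 17 on the right (median 0.02). Most of this list was dim, with 6 of the 29 above the median gene level and 2 below the lower quartile. The left arrays did not overlap for 3, all lower, and the right arrays for 1 higher and 1 lower. Vim, the vimentin filament gene, was at 0.22 on each side (SE 0.252), and Serpina3n at 0.12 on each side (SE 0.150). Lcn2, a secreted lipocalin that reactive astrocytes make, was at 5.34, 5.01 and 4.89 on right deaf arrays, against 4.73, 4.68 and 4.51 on right control arrays, a difference of 0.44 (SE 0.125). The Lcn2 right groups did not overlap, and its left difference was -0.09 (SE 0.125). Lcn2 lay below the median gene level. S100a10, a calcium-binding protein gene, differed by -0.46 (left) and -0.41 (right), with an SE of 0.289. Cxcl10, a chemokine gene, was at -0.17 (SE 0.109) and Serping1, a complement inhibitor gene, at 0.42 (SE 0.281) on the left, and Cd44, a hyaluronan receptor gene, at 0.16 on the right (SE 0.116).

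Transcription and signalling genes of astrocytes had lower means in 14 of 21 on the left (median -0.02) and 11 of 21 on the right (median -0.06 against 0.00 over all genes). Nfix was at -0.28 on the right (SE 0.096) and S1pr1, a sphingolipid receptor gene, at -0.14 (SE 0.084), both without overlap. Cerebellar markers were also lower on the right (median -0.30), and the part of such tissue in the Nfix and S1pr1 values was not tested. Sox9, a transcription factor gene of astrocytes, was at 0.26 on the left (SE 0.134), Bmpr1b, a bone morphogenetic protein receptor gene, at -0.16 (SE 0.104) and Lhx2 at -0.18 (SE 0.111). Sox9 was dim, with means of 4.85 in left deaf and 4.58 in left control rats, near the lower quartile of gene levels. On the right Lhx2 was at 0.20 (SE 0.111). Other astrocyte markers had lower means in 22 of 33 on the left (median -0.04) and 20 of 33 on the right (median -0.02), and 5 did not overlap on the left, all lower. Megf10, an engulfment receptor gene, was at -0.26 (SE 0.084) and Gpc4, a secreted synapse-inducing factor, at -0.26 (SE 0.081) on the left. Htra1, a secreted protease gene, was at -0.13 there (SE 0.082). On the right Prodh, a proline breakdown enzyme gene, was at 0.19 (SE 0.097), Ppp1r3g, a glycogen regulator gene, at 0.23 (SE 0.118) and Cldn10, a claudin gene, at -0.14 (SE 0.082), each without overlap. S100b was at -0.03 (SE 0.150) and Sparcl1 at 0.02 (SE 0.066) on the left.

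**Figure D4:**
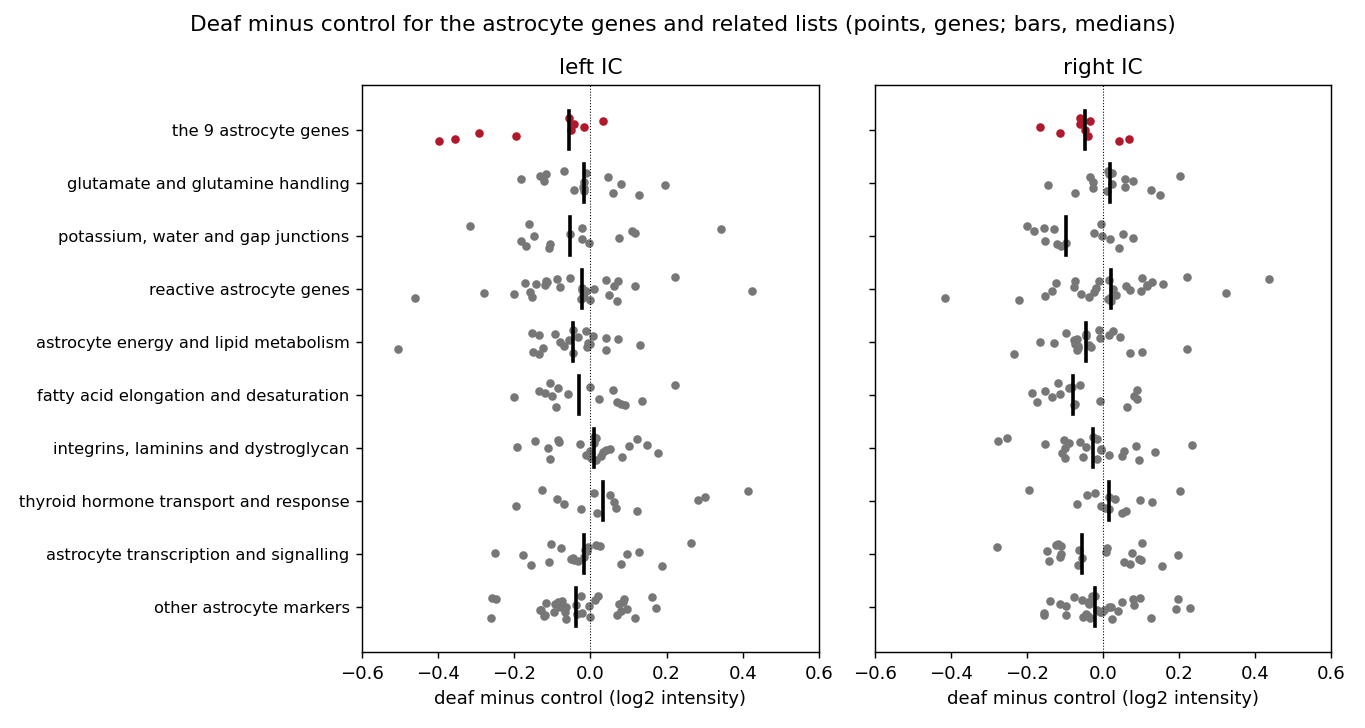
Difference of group means, deaf minus control (log2 intensity, horizontal axes), for the 9 astrocyte genes (red) and the genes of 9 related lists (grey) in the left and right IC; points are genes and bars are list medians. The medians lie within 0.1 of 0 on both sides, and the lowest red points on the left are Itga7, Elovl2 and Slco1c1.

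Markers of other cells were read in the same arrays. Neuronal markers had lower means in 9 of 15 on the left (median -0.01), and averaged 9.94 to 9.97 on left deaf arrays, against 9.98 to 10.02 on left control arrays. On the right 10 of 15 neuronal markers had higher means (median 0.03). Oligodendrocyte markers had lower means in 11 of 16 on the left (median -0.05) and 15 of 16 on the right (median -0.10). Precursors of oligodendrocytes had lower means in 5 of 9 markers on the left and 8 of 9 on the right. Microglial markers had lower means in 7 of 13 on the left (median -0.01) and 9 of 13 on the right (median -0.07). Meningeal markers had higher means in 19 of 19 on the left (median 0.22), and averaged 6.31 to 7.00 on left deaf arrays, against 6.06 to 6.55 on left control arrays. Gene-centred, this list was at -0.067, 0.565 and -0.128 on left deaf arrays, against 0.115, -0.206 and -0.373 on left control arrays. Only left deaf 2 was thus above all left control arrays. Of the 19 genes, 0 had left arrays without overlap and 0 reached an unadjusted limma p under 0.05 there. On the right 9 of 19 had higher means (median -0.01), and the list averaged 5.91 to 6.88 on deaf arrays, against 6.15 to 6.94 on control arrays. The part of meningeal tissue in the astrocyte values was not tested.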

How the data were processed

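RNA of the IC was read on Affymetrix arrays with 1 label, biotin, per the labels. The deposited values are log2 intensities that the authors had already put on 1 scale, since the 12 arrays differ by at most 0.0995 at each rank. The sources used here do not name the method. Of 29489 probes, 18511 had 1 gene symbol in the platform annotation, 575 several and 10403 none. The brightest probe stood for each of 291 genes with more than 1 probe, which left 18166 genes, with no filter on dim genes.

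Group means (4 groups, 12 arrays) were estimated by limma (version 3.58.1, under R version 4.3.3) using 8 residual and 3.79 prior degrees of freedom and two-sided tests. Exact permutation of 3 against 3 arrays has a smallest p of 0.1, hence the use of limma over all genes. In simulated data for the left comparison over 18166 genes, the fit called 52 of 100 genes changed 1.5-fold and 91 of 100 changed 2-fold, with 3 false calls.

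The members and lists were chosen with earlier results of these data known. Named genes are all members and, per astrocyte list, up to 3 genes per side with the smallest unadjusted p. Gjb6, Aldoc, Elovl5, Itgb1, Vim, Serpina3n, S100b and Sparcl1 were added after their values were seen. Genes of similar pattern were taken above the median level, without uncharacterised, microRNA or olfactory genes. Alternatives were quantile normalization, median centring, a filter on dim genes, other probe rules, a variance trend, array weights, fits of only the groups compared, replicate blocks and leaving out each array.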

Additional observations from a re-analysis of the deposited data

Results flagged for a closer look

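For Elovl2 and Itga7, the 3 left deaf arrays lay below the mean of the left control arrays, and the 3 right deaf arrays lay above the mean of the right control arrays. The difference between the sides was -0.42 for Elovl2 (left -0.36, right 0.07) and -0.44 for Itga7 (left -0.40, right 0.04). The difference was not tested, since both genes had been named for their left values. Part of the Itga7 difference lay between the control groups, whose means were 5.67 on the left and 5.45 on the right. The right deaf arrays of both genes overlapped the right control arrays. With 3 arrays a group, single arrays were not tested as outliers.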

How the results depend on the processing

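Over the alternatives run, limma called 0 of the 9 astrocyte genes in each of the 6 comparisons, leaving out each array included. Itga7 lies below the median gene level and was therefore absent from the fit of genes above that level. Of 1218 values of single astrocyte genes under an alternative, 1214 moved by less than 1 within-group SD and 52 changed sign. The dim-gene filter, other probe rules, the variance trend, fits of only the groups compared and replicate blocks left these differences unchanged. Leaving out 1 array also left the comparisons that do not use it unchanged. The count is thus a description and does not measure how stable the values are. No sign change could belong to a called value, since none of these genes was called. The number of genes called over all genes, 0 in each comparison as reported, was 1 for deaf minus control on the left among genes above the median level and 1 with a variance trend and robust estimation. For left minus right in deaf rats these settings gave 1 and 2. With the replicate number as a block (replicate block), 1 gene was called for left minus right in control rats and 1 for the difference between the sides, and 0 in the other comparisons; the block within an arm called 0. Deviations of same-numbered left and right arrays of an arm correlated at -0.056 to 0.149, best with their own number in 3 of 6 pairs, so the numbers were not taken as pairs. With 1 array left out, the count was 0 to 1 for deaf minus control on the left (1 without left deaf 3) and 0 to 1 for the mean of both sides (1 without right control 3). The median difference between the sides over the 9 genes, 0.00 as reported, ran from -0.101 (without right deaf 2) to 0.020 with 1 array left out. Of the 4 values that moved by more, Slc1a2 was at 0.04 for left minus right in control rats and at -0.04 for the difference between the sides after quantile normalization, and Slc1a3 and Acsbg1 were at 0.03 and -0.28 for the difference between the sides without right control 3 and left deaf 2, a setting chosen after the data were seen. Right control 3 had the highest average of cerebellar markers, and left deaf 2 that of meningeal markers. Fits of only the groups compared could not give the mean of both sides or the difference between the sides, which need all 4 groups. The cause of the changes was not tested. Dim signal limits Itga7, and 3 arrays a group limit all values.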
